A study of Mus musculus with 6 samples.

Results

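The small leucine-rich proteoglycans (SLRPs) of healing bone were followed here gene by gene through the cells of the mouse fracture callus. The 10 genes decorin (Dcn), biglycan (Bgn), lumican (Lum), fibromodulin (Fmod), keratocan (Kera), osteoglycin (Ogn), osteomodulin (Omd), epiphycan (Epyc), asporin (Aspn) and PRELP (Prelp) were taken by symbol, and all 10 were found among the 52081 genes that the 6 libraries share. The question was which cells of the callus carry which SLRP transcript, and whether a level differed between the 2 genotype labels.

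scRNA-seq was performed with a droplet 3′ kit on calluses of fractured femurs collected 14 days after fracture. The submitters' protocol has a callus taken from each mouse, while the study's text does not give the same number of mice throughout. That each library holds 1 callus is therefore assumed here and is not certain. The 3 control libraries carry the genotype label wt and the other 3 the label Col2CreERT; Piezo3-/-. The methods describe Piezo1f/f mice without and with a tamoxifen-inducible Col2a1-Cre, so the gene in the label and the gene in the methods differ, and the second group is called the labelled knockout here. All mice were described as 12-week-old males given tamoxifen at 75 mg per kg on 5 consecutive days from day 5 after fracture. The inducible Cre is driven by a type II collagen promoter, so deletion would be sought in cartilage cells and their descendants and not in all cells of the callus.

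Each library held 3482 to 11447 barcodes and 57626530 to 103784364 unique molecular identifiers (UMIs), and 41652 cells were kept. Pairs of libraries shared 4 to 36 barcodes. The libraries numbered 1 were counted with Cell Ranger 6.1.1 and the other 4 with 6.1.2, and those numbered 3 list 55357 genes where the others list 55450, so each number holds 1 library of each group processed alike. A pair of libraries stood apart. In labelled knockout library 3, the female transcript Xist reached 574 CPM (UMIs of a gene scaled to a total of 1000000 UMIs) and Y-linked genes 0.0293 CPM, against 0.106 to 0.173 CPM and 108 to 204 CPM in the other 5 libraries, and that library did not match the stated sex. In labelled knockout library 2, chondrocyte-like cells made up 0.454% and osteoblast-like cells 43.6% of the stromal-like cells, against 7.64% to 22.8% and 3.78% to 12.1% elsewhere. Piezo1, the mechanosensitive channel named in the study's methods, stood in chondrocyte-like cells at 69.5, 38.5 and 48.5 CPM in control libraries 1 to 3 and 137, 46.1 and 53.5 CPM in labelled knockout libraries 1 to 3. Those values overlap, and since a 3′ count need not cover the deleted exons, whose position is not given in the sources used here, these values do not check the label.

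SLRPs are secreted matrix proteins whose core is a curved stack of leucine-rich repeats, often with chondroitin, dermatan or keratan sulfate chains attached. Most bind collagen fibrils and set how fibrils form and how thick they become, and several hold growth factors of the TGF-β and BMP families in the matrix. They fall into classes by sequence and gene structure. Decorin, biglycan and asporin form class I, fibromodulin, lumican, keratocan, osteomodulin and PRELP form class II, and epiphycan and osteoglycin belong to class III. In the skeleton they are known from cartilage, tendon, periosteum and bone matrix.

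Most of the genes lie in tandem groups. On the GRCm38 build, Dcn (chr10:97479609-97518143), Lum (chr10:97565128-97572703), Kera (chr10:97606879-97613692) and Epyc (chr10:97644068-97682454) follow each other on the plus strand, as do Aspn (chr13:49544443-49567565), Omd (chr13:49582462-49592822) and Ogn (chr13:49608046-49624501). Prelp (chr1:133910304-133921414) and Fmod (chr1:134037254-134048277) are neighbours on opposite strands, and Bgn (chrX:73483602-73495933) is X-linked. RefSeq promoter windows, from 250 bases before to 50 bases after a start site (build GRCm38.p6), were matched for 8 of the 10 genes, Epyc with 2 start sites. Windows for Dcn and Lum were not used here. A set of 5 windows is shown because they come from neighbours whose transcripts parted or moved together in the values that follow. Capitals mark TATAAA and the RUNX core TGTGGT on either strand, and each is written in the direction of its gene.
Aspn, chr13:49544193-49544492, plus strand: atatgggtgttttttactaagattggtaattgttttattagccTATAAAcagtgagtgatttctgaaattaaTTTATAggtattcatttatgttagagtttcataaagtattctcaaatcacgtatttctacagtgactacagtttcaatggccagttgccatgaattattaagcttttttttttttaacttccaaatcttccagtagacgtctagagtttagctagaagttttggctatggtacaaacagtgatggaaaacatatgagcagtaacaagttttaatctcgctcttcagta
Ogn, chr13:49607765-49608064, plus strand: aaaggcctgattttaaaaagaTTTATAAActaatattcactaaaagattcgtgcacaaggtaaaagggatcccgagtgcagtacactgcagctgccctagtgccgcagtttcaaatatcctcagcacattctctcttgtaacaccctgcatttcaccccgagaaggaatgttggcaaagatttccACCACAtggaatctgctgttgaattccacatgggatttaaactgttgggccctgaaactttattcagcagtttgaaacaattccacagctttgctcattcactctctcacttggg
Omd, chr13:49582212-49582511, plus strand: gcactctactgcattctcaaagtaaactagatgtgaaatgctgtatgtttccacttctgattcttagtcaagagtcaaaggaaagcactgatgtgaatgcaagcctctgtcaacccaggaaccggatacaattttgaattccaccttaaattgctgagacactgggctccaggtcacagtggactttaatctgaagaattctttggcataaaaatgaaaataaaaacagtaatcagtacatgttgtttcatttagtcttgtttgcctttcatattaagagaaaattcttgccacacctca
Kera, chr10:97606955-97607254, plus strand: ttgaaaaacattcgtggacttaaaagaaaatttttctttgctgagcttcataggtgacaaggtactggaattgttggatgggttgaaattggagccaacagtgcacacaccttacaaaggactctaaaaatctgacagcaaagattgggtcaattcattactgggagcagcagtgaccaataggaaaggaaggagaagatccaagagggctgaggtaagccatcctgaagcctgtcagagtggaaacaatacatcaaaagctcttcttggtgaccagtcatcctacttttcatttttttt
Epyc, chr10:97643818-97644117, plus strand: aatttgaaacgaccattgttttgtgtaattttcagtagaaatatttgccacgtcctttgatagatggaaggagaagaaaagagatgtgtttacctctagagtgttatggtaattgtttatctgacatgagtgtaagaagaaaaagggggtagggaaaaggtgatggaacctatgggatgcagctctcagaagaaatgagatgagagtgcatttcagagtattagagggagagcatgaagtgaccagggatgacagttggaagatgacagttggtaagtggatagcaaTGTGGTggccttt

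The Aspn and Ogn windows each held TATAAA, which stood in 13.6% of 32851 RefSeq promoter windows of the same length. TGTGGT stood in the Ogn window and in the first Epyc window, against 16.8% of all windows. The AP-1 motif TGANTCA was in 0 of the 9 SLRP windows (7.81% of all windows) and the TEAD motif GGAATG was in the Ogn window and the second Epyc window (14.7%). A match describes letters and not a bound site.

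SLRP transcripts lay in the stromal cells of the callus. Cells were clustered without the SLRP genes and named from marker lists, which gave 12 stromal classes and 9 other classes to compare. Stromal-like cells were a mean of 37.2% of the cells of a library and held 90.7% (Bgn) to 98.1% (Kera) of the UMIs of each member. Bgn and Dcn held the most UMIs there, at 3211 ± 608 CPM (SD, n = 6 libraries) and 2840.5 ± 794 CPM. Kera held the fewest, at 26.2 ± 36.1 CPM. Few-UMI clusters with stromal markers, a mean of 15.6% of the cells of a library, were outside the stromal-like cells and all classes. UMIs count transcripts by their 3′ end and were not divided by gene length, so order between genes is not read as order of abundance per length. The 10 members together reached 20488 ± 2017 CPM in tendon-like cells (n = 5), 15877 ± 2875 CPM in periosteal-like cells and 13520.0 ± 1646 CPM in a cluster with chondrocyte markers that kept no cell type name. Its leading genes by fold were Sbsn, Ndufa4l2, Fam180a, Chrdl2 and Sfrp5, and it is called the Sfrp5 cluster here. They came to 4871 ± 678 CPM in osteocyte-like cells and 675 ± 332 CPM in neutrophil-like cells. Neutrophils should lack these genes, so their value is given as a measure of free RNA. It need not equal the level in other classes. Neutrophil-like clusters were shallow (median 1546.5 and 3717 UMIs a cell), and for Dcn macrophage-like cells held 89.8 and lymphocyte-like cells 224.5 CPM.

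**Figure D1:**
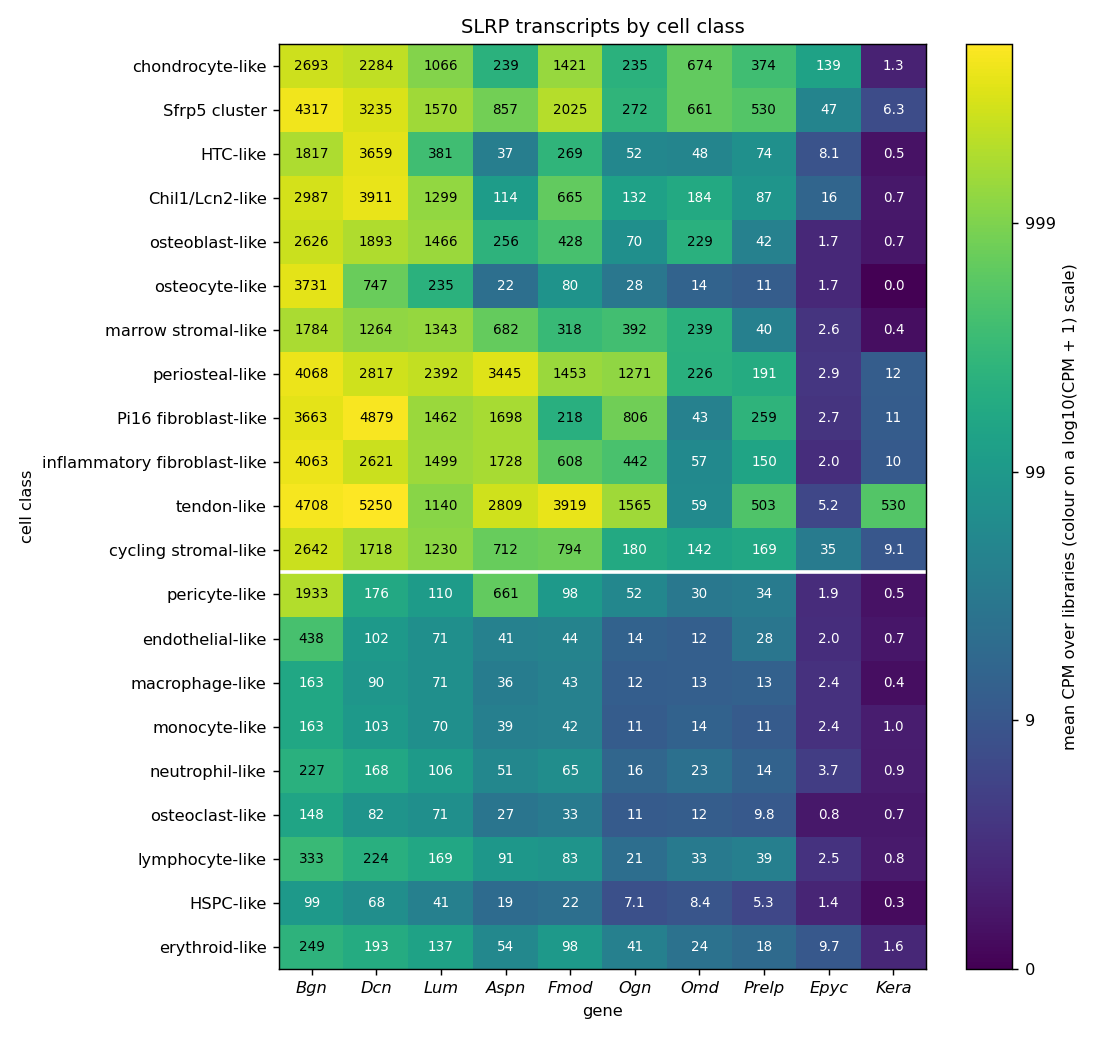
Mean level of each SLRP (columns) in each cell class (rows), in CPM over the libraries with at least 10 cells of the class, with colour on a log10(CPM + 1) scale. The white line parts the 12 stromal classes from the other 9. Kera stands out in tendon-like cells (530.3 CPM), Epyc in chondrocyte-like cells (139 CPM) and Bgn and Aspn in pericyte-like cells (1933 and 661 CPM).

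Among class I members, decorin was broad. Decorin coats collagen fibrils and binds TGF-β, and its transcript was highest in tendon-like (5250.3 ± 1556 CPM (SD, n = 5 libraries)) and Pi16 fibroblast-like cells (4879 ± 947 CPM), 2 classes that did not differ beyond their spread. Pi16 marks a perivascular and adventitial type of fibroblast. In cells with the markers of hypertrophic chondrocytes (HTC-like), the enlarged cartilage cells next to new bone, Dcn stood at 3659 ± 2166 CPM, a wide spread. The 6 libraries held 2551, 1649.5 and 5494 CPM in control libraries 1 to 3 and 4692, 1165 and 6404 CPM in labelled knockout libraries 1 to 3. The values of control libraries 2 and 3 and labelled knockout library 2 rest on 14, 17 and 23 such cells. Dcn took up 53.9% ± 11.2 of the SLRP UMIs of that class (SD, n = 6), against 27.6% ± 4.65 over all stromal-like cells. Dcn was low in osteocyte-like cells (747 ± 299.5 CPM) and, unlike Bgn, in pericyte-like cells (176 ± 102 CPM). In the latter it was near the neutrophil-like level (168 ± 86.6 CPM), while macrophage-like cells held 89.8 ± 43.6 CPM.

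Biglycan, the X-linked relative of decorin and a matrix protein of bone, was high in every stromal class, from 1784 CPM in marrow stromal-like to 4708 CPM in tendon-like cells. Its first 4 classes in order (tendon-like, the Sfrp5 cluster, periosteal-like and inflammatory fibroblast-like) were each within the spread of the next. Osteocytes are the cells buried in bone matrix, and there Bgn led. Dcn and Lum were also above neutrophil-like cells in osteocyte-like cells, in 5 of 5 libraries. In osteocyte-like cells Bgn stood at 3798, 3099.8 and 3323 CPM in control libraries 1 to 3 and 4028 and 4406 CPM in labelled knockout libraries 2 and 3, since library 1 had fewer than 10 such cells. It made up 76.8% ± 5.40 of their SLRP UMIs (SD, n = 5). Pericyte-like cells, the mural cells of small vessels, held 1694, 1532 and 1802 CPM in control libraries 1 to 3 and 2088, 2041 and 2443 CPM in labelled knockout libraries 1 to 3, and every value of the labelled knockout libraries was above every control value. The edgeR estimate there was 0.44 ± 0.29 (log2 fold change ± SE) with an adjusted p of 0.943, and 4.35% of all genes tested in these cells were likewise higher in every labelled knockout library. Endothelial-like cells held 438 ± 94.1 CPM. That was above neutrophil-like cells of the same library in 6 of 6 libraries but above lymphocyte-like cells in 4 of 6, within the spread. It is thus not read as above every class of blood cell. The libraries numbered 1 held only 27 (control) and 29 (labelled knockout) lymphocyte-like cells. Pericyte-like cells were above lymphocyte-like cells in 6 of 6.

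Asporin, which carries a run of aspartate residues and is known from periosteum, periodontal ligament and cartilage, was highest in periosteal-like cells and was also carried by mural cells. Periosteal-like cells, named from Penk, Sfrp2, Postn, Ptn, Gli1 and Cthrc1, held 4852, 3354 and 3047 CPM in control libraries 1 to 3 and 4006, 2268 and 3143 CPM in labelled knockout libraries 1 to 3. Tendon-like cells came next at 2809 ± 726 CPM, and the pair did not differ beyond its spread. Inflammatory fibroblast-like (1728 ± 1126 CPM) and Pi16 fibroblast-like cells (1698 ± 491 CPM) followed. Pericyte-like cells came after the Sfrp5 cluster, cycling and marrow stromal-like cells. They held 936, 691 and 558 CPM in control libraries 1 to 3 and 509, 643 and 628 CPM in labelled knockout libraries 1 to 3, with both groups overlapping. That was above lymphocyte-like and neutrophil-like cells of the same library in 6 of 6 libraries. The level in endothelial-like cells (41.5 ± 29.3 CPM) did not exceed that in neutrophil-like cells (51.2 ± 35.4 CPM), with the former higher in 3 of 6 libraries. Bgn and Aspn together held most of the SLRP UMIs of pericyte-like cells (62.9% ± 8.19 and 21.6% ± 4.98), while Dcn took 5.52% ± 3.11. Of the Aspn UMIs of a library, a mean of 47.6% lay in periosteal-like cells, which were 5.98% of all cells.

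**Figure D2:**
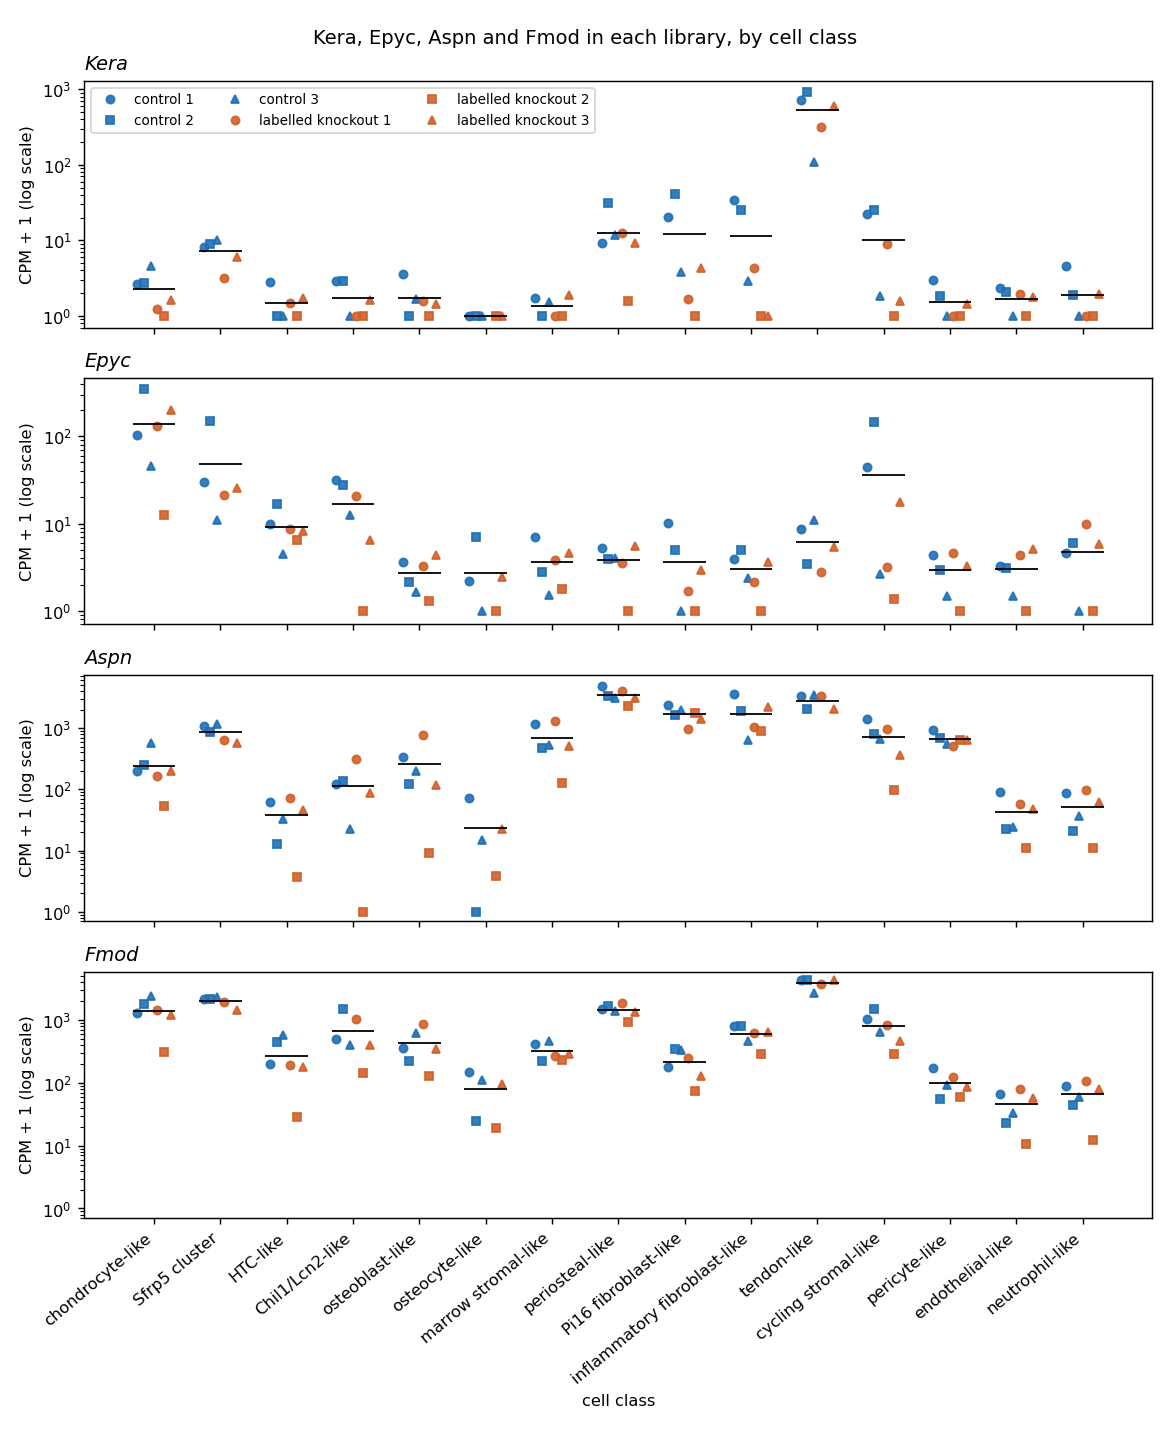
Level of Kera, Epyc, Aspn and Fmod in each library (points, CPM + 1 on a log scale) by cell class, with controls in blue, labelled knockouts in orange, the replicate number by shape and the mean as a line. The 5 tendon-like values of Kera (109 to 912 CPM) lie above every value of the other classes, and Aspn in pericyte-like cells (509 to 936 CPM) lies above all its endothelial-like values (10.2 to 89.9 CPM).

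Class II members split by tissue. Fibromodulin, which with lumican binds the same region of type I collagen, was highest in tendon-like cells, where the libraries held 4323, 4396 and 2733 CPM in control libraries 1 to 3 and 3738 and 4404 CPM in labelled knockout libraries 1 and 3. The Sfrp5 cluster (2025 ± 349 CPM) and periosteal-like cells (1453 ± 307 CPM) followed, and each of the 2 steps was lower in 5 of 5 libraries and beyond the SD. Periosteal-like and chondrocyte-like cells did not differ beyond their spread. Pi16 fibroblast-like cells, so rich in Dcn, held little Fmod, at 218 ± 111 CPM. Lumican, the collagen-binding SLRP of cornea and skin, had its highest level in periosteal-like cells (2392 ± 544 CPM (SD, n = 6 libraries)), higher than in the Sfrp5 cluster in 5 of 5 libraries. With no integration, and at Leiden resolution 0.4, inflammatory fibroblast-like cells were first for Lum. The 6 periosteal-like values ranged from 1418 to 2917 CPM. Below that, Lum was flat, and the next 4 classes, from 1569.8 to 1462 CPM, lay within each other's spread. Marrow stromal-like and osteoblast-like cells were the classes in which lumican took its largest shares of the SLRP UMIs, 21.6% ± 3.09 and 20.7% ± 3.84.

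Keratocan was a tendon transcript. It is known from cornea and tendon, and tendon-like cells, named from Tnmd, Thbs4, Scx, Mkx, Chodl and Col22a1, held 723, 912 and 109 CPM in control libraries 1 to 3 and 316 and 592 CPM in labelled knockout libraries 1 and 3. The values of control library 3 and labelled knockout library 1 rest on 14 and 19 tendon-like cells. The next class, periosteal-like cells, held 11.6 ± 9.90 CPM, a log2 difference of 5.02 ± 1.22 (SD, n = 5 libraries). At least 1 Kera UMI was seen in 65.6% ± 16.4 of tendon-like cells and in 0.504% ± 0.96 of neutrophil-like cells. The median depth was 19031 UMIs a cell in the former and 3245 in the latter, as a mean over libraries. Thinned to 500 UMIs a cell, the shares were 18.1% and 0.00935%. In osteocyte-like cells 0 Kera UMIs were counted.

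Osteomodulin was highest in the cartilage classes, and PRELP in cartilage and tendon classes alike. Osteomodulin (osteoadherin) binds mineral and cells in bone matrix, and its transcript was highest in chondrocyte-like cells, with 464, 535 and 371 CPM in control libraries 1 to 3 and 677, 859 and 1137 CPM in labelled knockout libraries 1 to 3, and in the Sfrp5 cluster (661 ± 324 CPM). Those classes did not differ beyond their spread, and marrow stromal-like cells (239 ± 43.4 CPM) lay below the Sfrp5 cluster in 5 of 5 libraries. Omd in osteoblast-like cells was 229 ± 95.8 CPM and in osteocyte-like cells 14.04 ± 14.8 CPM. The latter did not differ beyond the spread from neutrophil-like cells (22.8 ± 17.8 CPM), which were higher in 4 of 5 libraries. PRELP, which anchors basement membranes to connective tissue, was highest in the Sfrp5 cluster (530.2 ± 243 CPM (SD, n = 5 libraries)), tendon-like (503 ± 177 CPM) and chondrocyte-like cells (374 ± 164 CPM), with 0 of 20 steps in its order of classes beyond the spread. With no integration, and under 4 other settings, tendon-like cells were first for Prelp.

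Class III members parted between cartilage and fibrous tissue. Epiphycan, a proteoglycan of growth plate cartilage, was highest in chondrocyte-like cells, with 101, 346 and 44.1 CPM in control libraries 1 to 3 and 129.8, 11.5 and 198 CPM in labelled knockout libraries 1 to 3. It exceeded the Sfrp5 cluster (46.6 ± 57.8 CPM) in 5 of 5 libraries, and 61.2% of the Epyc UMIs of a library lay in chondrocyte-like cells on average. The library with the lowest value, labelled knockout library 2, had 15 such cells. Osteoglycin (mimecan) was highest in tendon-like (1565 ± 546 CPM (SD, n = 5 libraries)) and periosteal-like cells. The latter held 1461, 1727 and 953 CPM in control libraries 1 to 3 and 1336, 1144 and 1007 CPM in labelled knockout libraries 1 to 3, a range that did not part from the tendon-like one beyond the spread. Periosteal-like cells exceeded Pi16 fibroblast-like cells (806 ± 267 CPM) in 6 of 6 libraries, and osteoblast-like cells held 70.4 ± 42.5 CPM.

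**Figure D3:**
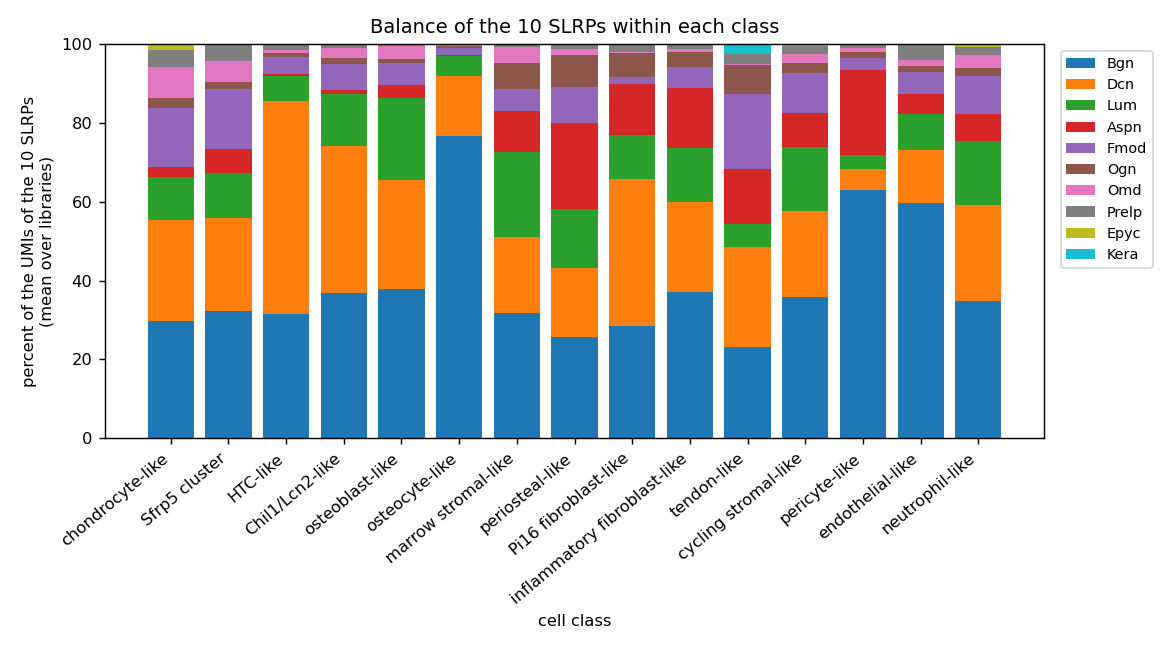
Each SLRP as a percent of the UMIs of all 10 (stacked bars from 0 to 100, mean over libraries) in the stromal classes and in pericyte-like, endothelial-like and neutrophil-like cells. Bgn fills most of the bar in osteocyte-like (76.8%), pericyte-like (62.9%) and endothelial-like cells (59.8%), and Dcn in HTC-like cells (53.9%).

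The mix of members differed between classes. In neutrophil-like cells the mix was near that of all stromal-like cells, with Bgn at 34.7% ± 7.56 against 31.9% ± 5.67 and Dcn at 24.5% ± 4.95 against 27.6% ± 4.65 (SD, n = 6). In endothelial-like cells Bgn was at 59.8% ± 10.8 and Dcn at 13.4% ± 5.24. Periosteal-like cells spread their SLRP UMIs over several members, with Bgn, Aspn, Dcn and Lum at 25.6% ± 1.31, 21.6% ± 3.46, 17.6% ± 3.08 and 15.0% ± 2.35. Tendon-like cells gave 19.1% ± 2.68 to Fmod and 2.54% ± 1.55 to Kera (n = 5).

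Along cartilage maturation most SLRPs were lower in the more mature cells. Chondrocytes of the callus enlarge into hypertrophic cells before bone replaces cartilage, and in HTC-like cells 8 of the 10 members were lower than in chondrocyte-like cells of the same library, in 6 of 6 libraries and by more than the SD. Of the 13080 genes with at least 10 CPM in a class, 7.97% were lower by the same rule. The log2 difference was -3.97 ± 1.23 for Omd, -3.42 ± 1.32 for Epyc, -2.65 ± 0.52 for Fmod and -1.61 ± 0.50 for Lum (SD, n = 6). Dcn, at 0.49 ± 1.24, was higher in 4 libraries and lower in 2, and Kera was at 1.29 CPM in chondrocyte-like and 0.502 CPM in HTC-like cells. Of the 655 HTC-like cells, 448 came from labelled knockout library 3. Control libraries 2 and 3 and labelled knockout library 2 held only 14, 17 and 23. Labelled knockout library 2 also held only 15 chondrocyte-like cells.

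On the bone side the picture was mixed. From periosteal-like to osteoblast-like cells, named from Bglap, Ifitm5, Ibsp and Sp7, 7 of 10 members were lower (29.3% of all genes), led by Aspn (-4.61 ± 1.86) and Ogn (-4.41 ± 1.02), while Dcn, Epyc and Omd (0.14 ± 1.23) were within the spread. From osteoblast-like to osteocyte-like cells 5 of 10 members were lower (17.7% of all genes), led by Omd (-4.53 ± 2.07), 4 were within the spread, and Bgn was higher in 5 of 5 libraries (0.60 ± 0.14, where 5.76% of all genes were higher by that rule). These pairs of classes were chosen with the levels known, and the classes come from other genes of the same cells, so they are described and not tested. Of the osteoblast-like cells, 1440 of 2317 came from labelled knockout library 2.

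**Figure D4:**
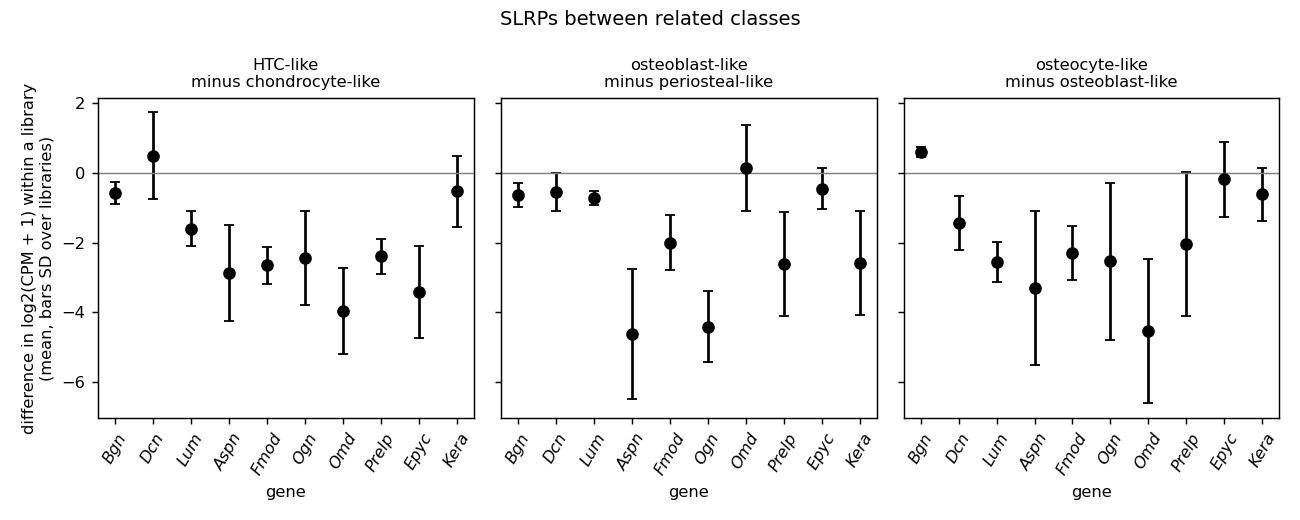
Difference in log2(CPM + 1) of each SLRP between 2 classes of the same library (points, mean over libraries, with SD bars). In the step to HTC-like cells 8 genes, and in the step to osteoblast-like cells 7, were lower in every library and by more than their SD. Bgn lies above 0 in the step to osteocyte-like cells (0.60 ± 0.14).

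Genomic neighbours did not always share a pattern. Over the 21 classes, the Pearson r of mean log2(CPM + 1) was 0.94 for Dcn and Lum, 0.92 for Ogn and Aspn and 0.91 for Fmod and Prelp. It was 0.19 for the adjacent Kera and Epyc, 0.46 for Lum and Kera and 0.60 for Omd and Aspn, although Omd lies between Aspn and Ogn. The median r was 0.57 over the 10 pairs on the same chromosome and 0.76 over the 35 other pairs. All values rest on the same libraries and classes and are descriptions across classes, with the absence of SLRPs from blood cells common to all pairs.

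The genes whose pattern over those classes was most like that of a member, out of 13080 genes with at least 10 CPM in a class, were named as follows. Epyc went with Cnmd (r = 0.96), Matn3 (r = 0.95), Ucma (r = 0.95), which are cartilage matrix and chondrocyte genes. Those genes are also on the marker list that named chondrocyte-like cells, so this match is not independent of the class. Kera went with Lypd6 (r = 0.96), C1ql3 (r = 0.96), Six2 (r = 0.95), the last a transcription factor of tendon and kidney. Aspn went with Cacng7 (r = 0.97), Gng8 (r = 0.96), P4ha3 (r = 0.96), of which P4ha3 is a collagen prolyl hydroxylase. Ogn went with Bnc2 (r = 0.97), Col8a2 (r = 0.96), Cpxm1 (r = 0.96), and Col8a2 is a short-chain collagen. Bgn went with Kdelr3 (r = 0.98), Zfp9 (r = 0.98), Copz2 (r = 0.98), and Kdelr3 and Copz2 act in transport between endoplasmic reticulum and Golgi. Dcn went with Armh4 (r = 0.97), Gpx3 (r = 0.97), Tmem45a (r = 0.96), and Gpx3 is a secreted glutathione peroxidase. Lum went with Htra3 (r = 0.98), Igdcc4 (r = 0.98), Ephb2 (r = 0.98), and Htra3 is a secreted protease. Fmod went with Tceal3 (r = 0.96), 1500015O10Rik (r = 0.96), Tenm3 (r = 0.95). Omd went with Npas3 (r = 0.94), Fgfr2 (r = 0.93), AC163101.1 (r = 0.91), of which Fgfr2 is an FGF receptor of bone-forming cells. Prelp went with Gfpt2 (r = 0.97), Adgrg2 (r = 0.95), Cdon (r = 0.94), and Cdon is a co-receptor of hedgehog signalling.

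Counts by genotype label were then compared over libraries, with UMIs summed per library. In all stromal-like cells no member passed an adjusted p of 0.05 in edgeR (quasi-likelihood, Benjamini-Hochberg adjusted), 0 of 10, where the same test called 0% of all 18100 genes tested. At an unadjusted p of 0.05 edgeR gave 0 of 10 members and 259 genes (1.43%). DESeq2 called 0 members and 0 of all 18100 genes at an adjusted p of 0.05. In 0 of 10 members did the groups not overlap, against 3.91% of all genes. The estimate was lower in the labelled knockout for 8 members and higher for 2 (Bgn and Omd), with a median log2 fold change of -0.66 for the members and 0.0054 for all genes.

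Aspn held 1557, 1359 and 978 CPM in control libraries 1 to 3 and 1266, 199 and 645 CPM in labelled knockout libraries 1 to 3, a log2 fold change of -0.84 ± 0.58 (SE). Fmod held 1250.4, 1756 and 887 CPM in control libraries 1 to 3 and 1209, 205 and 945 CPM in labelled knockout libraries 1 to 3, or -0.66 ± 0.61. Prelp held 395, 314 and 107 CPM in control libraries 1 to 3 and 272, 21.5 and 199.7 CPM in labelled knockout libraries 1 to 3, or -0.65 ± 0.81. In each of these 3 genes labelled knockout library 2 was the lowest and at least 1 other labelled knockout library lay within the controls. Without that library the log2 fold changes were -0.41 ± 0.40 for Aspn, -0.21 ± 0.41 for Fmod and -0.14 ± 0.51 for Prelp. It was also the one with few chondrocyte-like, tendon-like and Sfrp5-cluster cells (15, 9 and 6 cells). Kera held 34.7, 95.6 and 3.67 CPM in control libraries 1 to 3 and 8.004, 0.0746 and 15.2 CPM in labelled knockout libraries 1 to 3, or -2.40 ± 1.48. Without labelled knockout library 2 the Kera value was -1.82 ± 1.12. Tendon-like cells, which carry it, were 0.428% to 11.4% of stromal-like cells in control and 0.272% to 3% in labelled knockout libraries. In a sum over stromal-like cells, fewer cells of a class and less RNA per cell cannot be told apart, and the part of the class shares was not tested. Among marker sums of other cells in the stromal-like cells, that of macrophages did not overlap between the groups, as 3.91% of all single genes did not. Its 8 genes summed to 45.2 to 67.3 CPM in control and 97.5 to 207 CPM in labelled knockout libraries. The sums were not tested by label, and those beyond macrophages and neutrophils are not given here. The 8 neutrophil markers summed to 74.0 to 1066 CPM in control and 333 to 1152 CPM in labelled knockout libraries, with overlap, and the part of both in the SLRP values was not tested.

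Bgn held 3319, 3357 and 3128 CPM in control libraries 1 to 3 and 4126, 2232 and 3107 CPM in labelled knockout libraries 1 to 3, a log2 fold change of 0.03 ± 0.38. Within a number, the labelled knockout was lower than the control in 3 of 3 numbers for Aspn and Ogn, in 1 of 3 for Omd and in 2 of 3 for the other 7 members. The Bgn groups overlapped, and the female-type library 3 lay inside the range of the others for this X-linked gene. Dcn (-0.29 ± 0.44), Lum (-0.43 ± 0.39), Ogn (-0.83 ± 0.52) and Epyc (-0.77 ± 1.41) overlapped as well, and Epyc turned to 0.70 without control library 2. The SE of these 10 estimates runs from 0.38 (Bgn) to 1.48 (Kera) on the log2 scale. In counts simulated with the spread of these cells, edgeR called 0% of genes with a log2 change of 1 and 42% at 2. Changes of the size of most of these estimates could thus go uncalled.

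Within the 12 stromal classes 106 member and class pairs could be tested, and 0 passed the adjusted p of 0.05 in edgeR or in DESeq2 (0% of 126422 gene and class pairs in edgeR). DESeq2 called the most genes in marrow stromal-like cells (1 higher and 7 lower of 10554) and inflammatory fibroblast-like cells (3 higher and 5 lower of 9601). At an unadjusted p of 0.05 edgeR gave 12 of the 106 pairs (11.3%), against 2.87% of all gene and class pairs. These pairs share libraries and are not independent. Of the 12, 6 were Omd, each higher in the labelled knockout. The other 6 were lower. They were Kera and Ogn in chondrocyte-like, Ogn in marrow stromal-like, Prelp in cycling stromal-like and Fmod and Lum in HTC-like cells. In HTC-like cells the log2 fold change was -1.59 ± 0.62 (SE) for Fmod and -1.28 ± 0.55 for Lum. There the Fmod groups did not overlap, as 186 of 8714 genes lay lower without overlap, while the Lum groups overlapped. The groups did not overlap in 15 of the 106 pairs (14.2%), against 9.01% of all gene and class pairs. With no filter on low counts the edgeR count called was 8. That setting also called other genes, in tendon-like cells 53 higher and 33 lower of 20180. It called the fewest in HTC-like cells (7 higher and 12 lower of 23963). The most were in inflammatory fibroblast-like cells (77 higher and 66 lower of 23924). The share over all classes was not counted for that setting. Members were also called in fits left with 1 labelled knockout library, such as Aspn and Ogn in osteocyte-like cells without labelled knockout library 3.

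Omd was the member with the most pairs under an unadjusted p of 0.05. Its log2 fold changes in the stromal classes ran from -0.026 (osteocyte-like) to 2.71 (inflammatory fibroblast-like cells), with a median of 0.92. These classes come from the same libraries, so agreement between them is not replication. In chondrocyte-like cells, where the library values were given before, all 3 labelled knockout values lay above the controls, an edgeR log2 fold change of 1.05 ± 0.36 (SE) with an adjusted p of 1. In tendon-like cells Omd held 34.5, 18.4 and 39.5 CPM in control libraries 1 to 3 and 98.4 and 103 CPM in labelled knockout libraries 1 and 3, or 1.86 ± 0.37 with an edgeR adjusted p of 0.371. Control library 3 entered with 14 such cells and labelled knockout library 1 with 19. Both labelled knockout libraries again lay above the controls, as for 9.78% of all genes there. Ogn and Prelp did so too, which made 3 of the 10 members. With no filter on low counts the edgeR adjusted p was 0.00583, in a fit that called 53 genes higher and 33 lower of 20180. The Sfrp5 cluster held 579, 463 and 307 CPM in control libraries 1 to 3 and 817 and 1136 CPM in labelled knockout libraries 1 and 3, also without overlap (4.55% of all genes lay higher), or 1.19 ± 0.38. In that cluster Aspn, Fmod and Kera did not overlap either and lay lower, as 939 of 12967 genes did. In periosteal-like cells Omd held 154, 81.1 and 172 CPM in control libraries 1 to 3 and 143, 373 and 431 CPM in labelled knockout libraries 1 to 3, or 1.23 ± 0.44, and labelled knockout library 1 lay among the controls.

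The highest Omd value came from labelled knockout library 3, the female-type one, in each of these 4 classes. Without it the log2 fold change was 0.81 ± 0.42 in the Sfrp5 cluster, 0.75 ± 0.38 in chondrocyte-like, 1.81 ± 0.45 in tendon-like and 0.88 ± 0.46 in periosteal-like cells, the tendon-like and Sfrp5 cluster values each resting on 1 labelled knockout library assumed to vary like the controls. Within a number, the labelled knockout was higher than the control in 3 of 3 numbers in chondrocyte-like cells, in 2 of 2 in tendon-like cells and the Sfrp5 cluster, and in 2 of 3 in periosteal-like cells. In all stromal-like cells it went from 0.85 ± 0.60 to 0.06 ± 0.50. The Omd level in neutrophil-like cells, a measure of free RNA, was 25.2, 7.07 and 10.4 CPM in control libraries 1 to 3 and 40.7, 6.42 and 47.0 CPM in labelled knockout libraries 1 to 3, and it was also highest in labelled knockout libraries 1 and 3. The part of free RNA and of sex in the Omd values was not tested. The estimates of its neighbours Ogn and Aspn were -0.67 ± 0.29 and -1.19 ± 0.55 in chondrocyte-like cells and 0.65 ± 0.42 and -0.12 ± 0.42 in tendon-like cells. Whether Omd differed from them by label was not tested.

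In chondrocyte-like cells, the groups did not overlap for 4 of 10 members against 8.07% of all genes. Omd lay higher (1.81% of all genes did) and Aspn, Ogn and Kera lower (6.26%). Aspn held 201, 248 and 572 CPM in control libraries 1 to 3 and 163, 53.0 and 196 CPM in labelled knockout libraries 1 to 3. Ogn held 264, 276 and 339 CPM in control libraries 1 to 3 and 181, 189 and 161 CPM in labelled knockout libraries 1 to 3. Kera, at 0 to 3.53 CPM, was in the range of neutrophil-like cells (0 to 3.60 CPM). None of these passed the adjusted test, and labelled knockout library 2 entered with 15 cells. The fold change of the cartilage member Epyc was -0.38 ± 0.84 and that of Fmod -0.83 ± 0.55, both with overlapping groups.

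**Figure D5:**
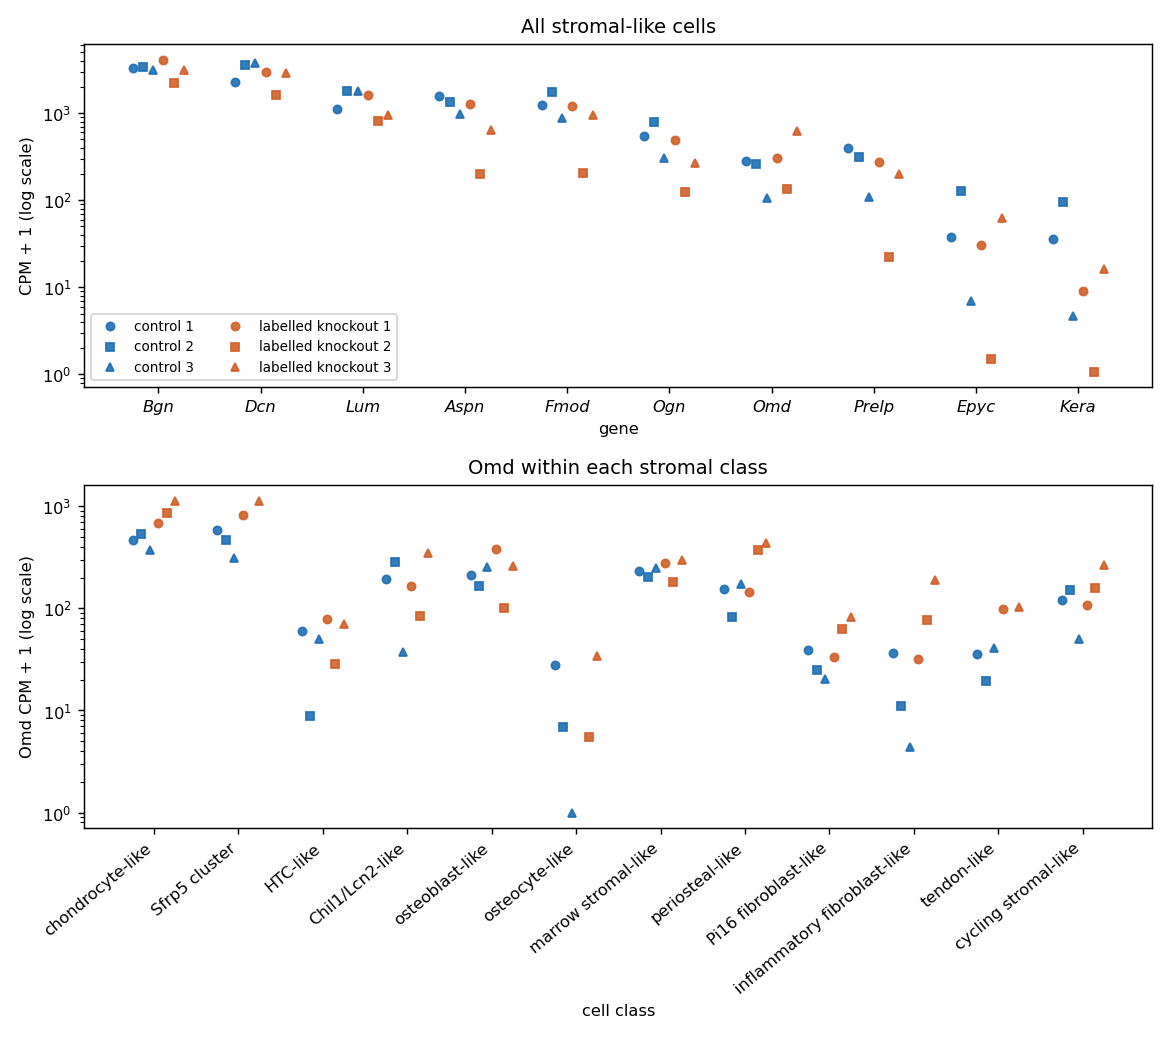
Upper plot, level of each SLRP in all stromal-like cells of each library (CPM + 1, log scale), and lower plot, Omd within each stromal class. Controls are blue and labelled knockouts orange, with the replicate number by shape. In the upper plot the groups overlap for all 10 genes, and in the lower plot the Omd values of the labelled knockout lie above the controls in chondrocyte-like cells, the Sfrp5 cluster and tendon-like cells.

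The genes that build and cut SLRPs were taken as lists. Of 8 further SLRP genes, chondroadherin (Chad), a collagen-binding protein of cartilage, was the most abundant, with 1426 ± 627 CPM in chondrocyte-like cells (SD, n = 6). Xylt1, which starts the sugar chain on the core protein, led the 6 linker enzymes at 507 ± 127 CPM in the Sfrp5 cluster (n = 5). Chst11, a chondroitin sulfotransferase, led the 15 chondroitin and dermatan enzymes at 289 ± 135 CPM in chondrocyte-like cells. Of the keratan enzymes, B4galt1 led at 179 ± 37.6 CPM in Pi16 fibroblast-like cells, and Chst5, a sulfotransferase that acts on keratan sulfate, had its highest level in tendon-like cells with Kera and Fmod (32.6 ± 27.7 CPM, n = 5).

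Mmp13, the collagenase of hypertrophic cartilage, led the 9 proteases and helpers at 6908 ± 1758 CPM in Chil1/Lcn2-like cells, and Bmp1, which trims the propeptides of several SLRPs, was highest in osteoblast-like cells (598 ± 134 CPM). By genotype label in all stromal-like cells, 0 genes of these lists passed edgeR's adjusted p of 0.05 in either direction, out of 7 further SLRPs, 6 linker, 15 chondroitin and dermatan and 9 keratan enzymes and 8 proteases that could be tested. At an unadjusted p of 0.05 it was 1 further SLRP and 1 chondroitin or dermatan enzyme. The 15 chondroitin and dermatan enzymes had 11 estimates lower and 4 higher, with a median log2 fold change of -0.23. The proteases had 3 lower and 5 higher, with a median of 0.55. In chondrocyte-like cells 13 of the 14 chondroitin and dermatan enzymes tested were lower, with a median of -0.45 against -0.022 for all genes. The medians there were -0.28 for linker enzymes, 0.0087 for keratan enzymes, 0.11 for further SLRPs and 0.31 for proteases. The lists were not tested as sets, and the share of all genes with a lower estimate was not counted. The 5 further SLRPs tested in chondrocyte-like cells also gave 0 calls in edgeR. Among them Chad was higher in every labelled knockout library, as 1.81% of all genes were, with a log2 fold change of 1.05 ± 0.46 (SE) and an edgeR adjusted p of 1.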

How the data were processed

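The authors deposited 1 droplet matrix per library, with UMI counts per gene and barcode, made with Cell Ranger (6.1.1 or 6.1.2 in the file headers) on GRCm38. Barcodes under 500 UMIs, under 200 genes or over 20% mitochondrial UMIs were dropped, and the highest Scrublet scores (0.8% per 1000 cells) were removed as doublets. Libraries were integrated (Seurat 5.3.0, reciprocal PCA, 2000 variable genes without the SLRPs, 30 components) and clustered (scanpy 1.11.5, Leiden, 20 neighbours, resolution 0.8). A cluster took the name of a marker list where at least 3 of its genes were in 25% of the cells and at 2 times the median cluster. It stayed unnamed where another list held more of its 10 leading genes, and could stay unnamed where its cells held few UMIs. The limits for naming were chosen on these data. The naming itself used neither the genotype label nor any SLRP gene. A cluster with 13 chondrocyte markers, called the Sfrp5 cluster, stayed unnamed but was compared. Sfrp5, on a fibrocartilage list, was among its leading genes and no chondrocyte marker was. A few-UMI cluster (with 10 chondrocyte markers), one led by neutrophil genes and other unnamed cells count only among all stromal-like cells. Further few-UMI clusters with stromal markers, 4219 cells, were left out of the stromal-like cells and of every class. They held 1597 of 4113 cells in control library 1 and 1171 of 3068 in labelled knockout library 1, against 122 to 652 cells in the other libraries. The larger of these clusters, with 3639 cells, had the cartilage genes Hapln1, Col10a1, Col9a1, Matn3 and Col11a1 among its leading genes, beside Mir6236, Lars2 and mt-Rnr1. The chondrocyte-like and HTC-like values leave these cells out.

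Levels are UMIs of a gene scaled to 1000000 UMIs of the class and library (CPM), for at least 10 cells of a class in a library. Class differences are on log2(CPM + 1) within a library. Beyond the spread means the same direction in every library and a mean over 1 SD. Counts summed per library were tested by genotype label in edgeR 4.0.16 (quasi-likelihood, TMM, filterByExpr, adjusted over all genes of the class), checked on simulated data, with DESeq2 1.42.0 as an alternative. In counts simulated with the spread of all stromal-like cells, edgeR found 0% of 50 genes changed by a log2 of 1. At a log2 of 2, 3 and 4 it found 42%, 64% and 86%, with 2 false calls. Libraries were grouped by the submitters' labels. Genes named are the 10 members, the 3 genes most like each by Pearson r, and the most abundant gene of each other list. Chst5 and Bmp1 were added after their values were seen. The members, lists and class pairs were chosen with earlier results of these data known.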

Additional observations from a re-analysis of the deposited data

How the results depend on the processing

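The count of members called by genotype label in the 12 stromal classes was 0 in the fit reported and changed with the libraries and the filter. It was 8 with no filter on low counts, where other genes were called too (in tendon-like cells 53 higher and 33 lower of 20180). The genes called there ran from 7 higher and 12 lower of 23963 (HTC-like) to 77 higher and 66 lower of 23924 (inflammatory fibroblast-like). Members were also called without labelled knockout replicate 3 (Aspn and Ogn in osteocyte-like cells) and without replicate 3 of both groups. Those calls came from fits left with 1 labelled knockout library. In all stromal-like cells, leaving out 1 library at a time moved Bgn between -0.10 and 0.20 and Epyc between -1.97 and 0.70, the last without control replicate 2. Without replicate 3 of both groups Bgn was at -0.018 and Omd at -0.26. With no integration Ogn in chondrocyte-like cells was at 0.073. At Leiden resolution 0.4, 6 of the 10 members kept their highest class, with Dcn highest in Pi16 fibroblast-like, Lum in inflammatory fibroblast-like and Aspn and Prelp in tendon-like cells. With no integration Dcn was highest in Chil1/Lcn2-like cells (7247 CPM), Lum in inflammatory fibroblast-like (2087 CPM) and Prelp in tendon-like cells (569 CPM), and with no doublet removal Dcn in Pi16 fibroblast-like (5031 CPM) and Prelp in tendon-like cells (463 CPM). Leaving out 1 library moved Prelp to tendon-like cells or Omd to the Sfrp5 cluster in 4 cases, and at resolution 1.2 Bgn took 70.7% of the SLRP UMIs of osteocyte-like cells. The causes were not tested. The log2 fold changes recomputed were those of the 10 members in all stromal-like cells and of 12 member and class pairs. These pairs were chosen because their unadjusted edgeR p was low in the fit reported, and the refits reused most of the libraries. Of the recomputed values 332 kept direction and side of the threshold, 6 turned direction and 4 passed the threshold that the fit reported missed. Kept direction in the chosen pairs is thus not an independent check, and the other pairs were not in this count.

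With the replicate number as a block, 0 members were called in all stromal-like cells and 0 in the stromal classes. Of all genes, that fit called 0 of 18100 in all stromal-like cells. It called 39 higher and 13 lower of 10004 in tendon-like cells. The Sfrp5 cluster had 8 higher and 10 lower of 12967, and marrow stromal-like cells 1 higher of 10554. Same-numbered libraries share the Cell Ranger version and gene list, but no label says that a number marks a shared batch. The mean of its group was subtracted from each gene of a library in all stromal-like cells, and these deviations were correlated. Same-numbered libraries gave 0.26, -0.08 and -0.18, and only the libraries numbered 1 correlated best with each other. These values do not describe how alike the levels were. The 3 deviations of a group sum to 0 for each gene, so the values are not independent. Libraries per group, 3 or fewer, and classes with under 20 cells in a library limit the precision.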
